A study of Hermetia illucens with 24 samples.

Results

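In black soldier fly (*Hermetia illucens*) larvae, 64 genes had mean levels that differed by less than 1 on a log2 scale across 3 ages on control feed. Their mean levels were higher on feed with aflatoxin B1 (AFB1) at every time sampled, though single libraries of the diets often overlapped. They were selected on their measured levels, out of 15129 genes that carry an NCBI LOC number. Levels were counts per 1000000 (CPM), computed on all counts of a library other than those of LOC119646963, the most abundant gene. A gene was taken when its mean log2(CPM + 1) in the 3 control groups lay within 1 of each other and its AFB1 mean exceeded the control mean by at least 0.7 (1.62-fold) at 6, 24 and 72 h. The rule allowed up to 150 genes, and 64 met it, so all of them are members. The members' higher mean level on AFB1 feed, and the limited range of their control means, are therefore what they were chosen by and not findings.

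All larvae were 5 days old when they were put on chicken feed, either plain (control) or carrying AFB1, and they were taken 6, 24 or 72 h later. There were 6 groups of 4 libraries, each library from the total RNA of a pool of 2 whole larvae, where the protocol speaks of 5 pools per group. The AFB1 concentration is not given in the labels, and no strain is named. Whether pools came from separate rearing containers is not given either, so the spread between libraries may be partly technical. In whole larvae, fewer cells of a type and less RNA per cell cannot be told apart.

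AFB1 is a toxin of *Aspergillus* moulds that contaminates grain and animal feed. In animals, cytochrome P450 enzymes oxidise it, in part to a reactive epoxide that binds DNA, and glutathione S-transferases and other conjugating enzymes help to clear such products. Black soldier fly larvae are reared on organic waste and are known for tolerating contaminated feed. The annotation used here pairs the LOC numbers with a gene class but not with a product, so none of the 64 genes is given a role, and whether any belongs to these enzyme families was not analysed here.

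Library totals ran from 6829395 to 27143922 counts. LOC119646963 took 7.12% to 81.1% of them, which left 1713199 to 24362279 counts for all other genes. The fewest remained in replicates 3 and 4 of AFB1 24 h, where LOC119646963 took 74.2% and 81.1%. Over 6925 genes, 7 of the 24 libraries correlated better on average with another group than with their own. Of these, AFB1 6 h replicate 2 was nearest to control 24 h replicate 1 (Pearson r 0.984 across genes), and control 24 h replicate 4 was nearest to AFB1 24 h replicate 1 (r 0.862). Control 24 h replicate 1 correlated better on average with AFB1 6 h (0.857) than with its own group (0.845). AFB1 6 h replicate 2 was the nearest library of control 24 h replicates 2 and 3 as well (r 0.933 and 0.91). Control 72 h libraries were close to each other. Replicates 1 and 4 of that group differed 1.80 times and replicates 2 and 3 6.10 times as much as sampling alone gives, where pairs within the other groups differed at least 36.3 times as much. Both values exceed counting noise, so the libraries were counted separately, but they may still be repeats of the same RNA.

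The steady control level alone was common: 12429 of the 15129 genes met that limit, 10765 of them with at least 1 count. Among the steady genes, 579 were higher on AFB1 feed by the limit at 6 h, 1132 at 24 h and 653 at 72 h. Both 6 and 24 h were met by 298 genes, 24 and 72 h by 196, and 6 and 72 h by 104. By the same limits, 174 steady genes were lower on AFB1 feed at all 3 times. Without the limit on the controls, 143 genes were higher at all 3 times. At the edge of the rule, the last genes inside were LOC119657532 and LOC119651461, each with a smallest difference of 0.71. The first outside were LOC119652139 at 0.70 and LOC119657757 at 0.69.

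All 64 members were protein-coding, in an annotation with 13975 protein-coding genes and 1041 long non-coding RNA genes among the LOC numbers. A single RefSeq transcript was annotated for 56 of them (87.5%), against 67.55% of the detected protein-coding genes. Their levels spanned a wide range: the mean over the 12 control libraries was at least 100 CPM in 14 members, at least 10 CPM in 35 and below 1 CPM in 6. In 58 members every library had at least 1 count, and 6 were at 0 counts in at least 1 library. Of the 64, 1 pair sat side by side in the reference order (LOC119658435 and LOC119657218), and 1 other pair, LOC119650048 and LOC119648198, had 1 gene between them. The genes flanking the first pair were not members. Their differences between diets lay between -1.31 and 0.83.

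The median difference of the members in mean log2(CPM + 1) was 1.06 at 6 h, 1.39 at 24 h and 1.14 at 72 h. Over all genes tested it was -0.28, -0.44 and 0.07. At the same times 11.1%, 14.4% and 11.6% of all genes tested reached a difference of at least 0.7. The members' differences ran from 0.71 to 2.53 at 6 h, from 0.72 to 4.11 at 24 h and from 0.71 to 3.77 at 72 h. Each member's smallest difference had a median of 0.85, and all 3 differences reached 1 in 23 members. These values describe the selection.

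**Figure D1:**
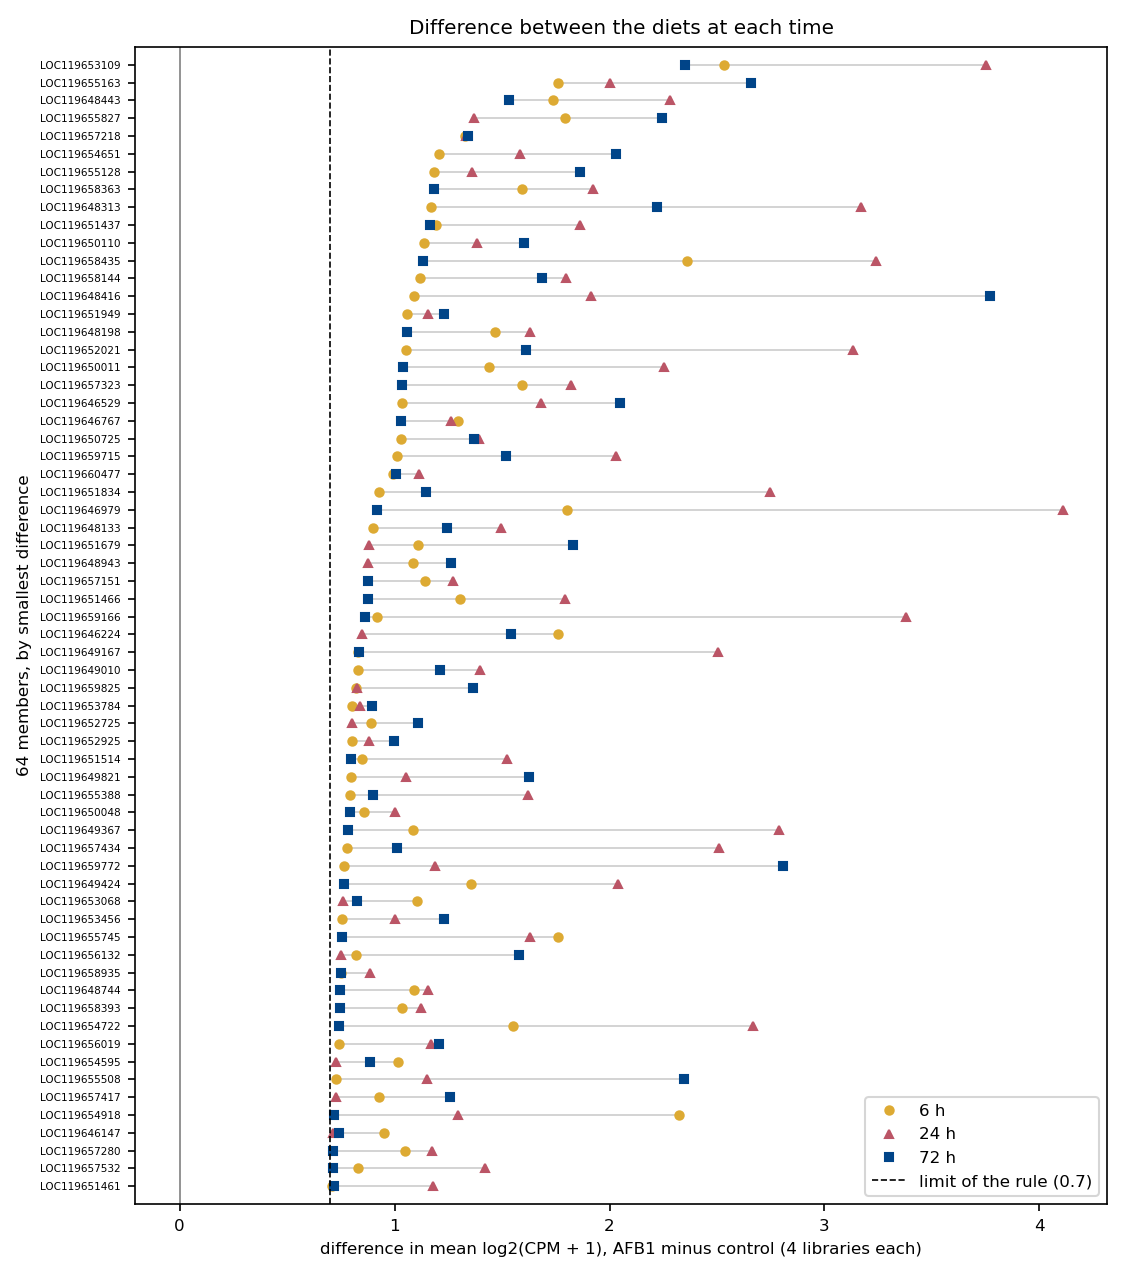
Difference in mean log2(CPM + 1) between AFB1 and control libraries (horizontal axis, 4 libraries per diet) for each of the 64 members (vertical axis) at 6 h (circles), 24 h (triangles) and 72 h (squares). The dashed line marks the limit of the rule at 0.7; the circles reach 2.53, the triangles 4.11 and the squares 3.77.

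The members' mean differences were not largest at the same time in all of them. Whether their time courses differed beyond the spread of 4 libraries per group was not tested. The largest of the 3 differences fell at 24 h in 35 members, at 72 h in 22 and at 6 h in 7, and the smallest fell at 6 h in 29, at 72 h in 25 and at 24 h in 10. In 22 members the 3 differences lay within 0.5 of each other, and in 14 they were over 1.5 apart. The 24 h difference exceeded both others by 1 or more in 9 members, the 72 h difference in 3 and the 6 h difference in 1. LOC119657218 was the most even, with differences of 1.33, 1.33 and 1.34. LOC119646979 was the least even, with 1.80, 4.11 and 0.92 at 6, 24 and 72 h.

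Single libraries separated the diets less well than the group means. All 4 AFB1 libraries lay above all 4 control libraries in 6 members at 6 h, 34 at 24 h and 37 at 72 h. It was also so for 4.18%, 5.19% and 10.9% of all genes tested. This contrast chose the members, so nothing is read from these counts. The diets overlapped at all 3 times in 15 members, and no member had all 12 AFB1 libraries above all 12 control libraries. Shares of all genes for these last counts are not given here, so nothing is read from them either. Without AFB1 6 h replicate 2, the number of members with separate diets at 6 h was 31, and the share of all genes 9.06%. In edgeR's quasi-likelihood test over all 24 libraries, an adjusted p under 0.05 was reached by 17 members at 6 h, 36 at 24 h and 11 at 72 h, all higher, against 6.52%, 12.2% and 3.35% of 10165 genes tested. With the control 72 h libraries summed to 2, no member was called at 72 h, and 4.39% of all genes in either direction, against 9.28% with 4. These calls rest on the values that chose the members too.

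**Figure D2:**
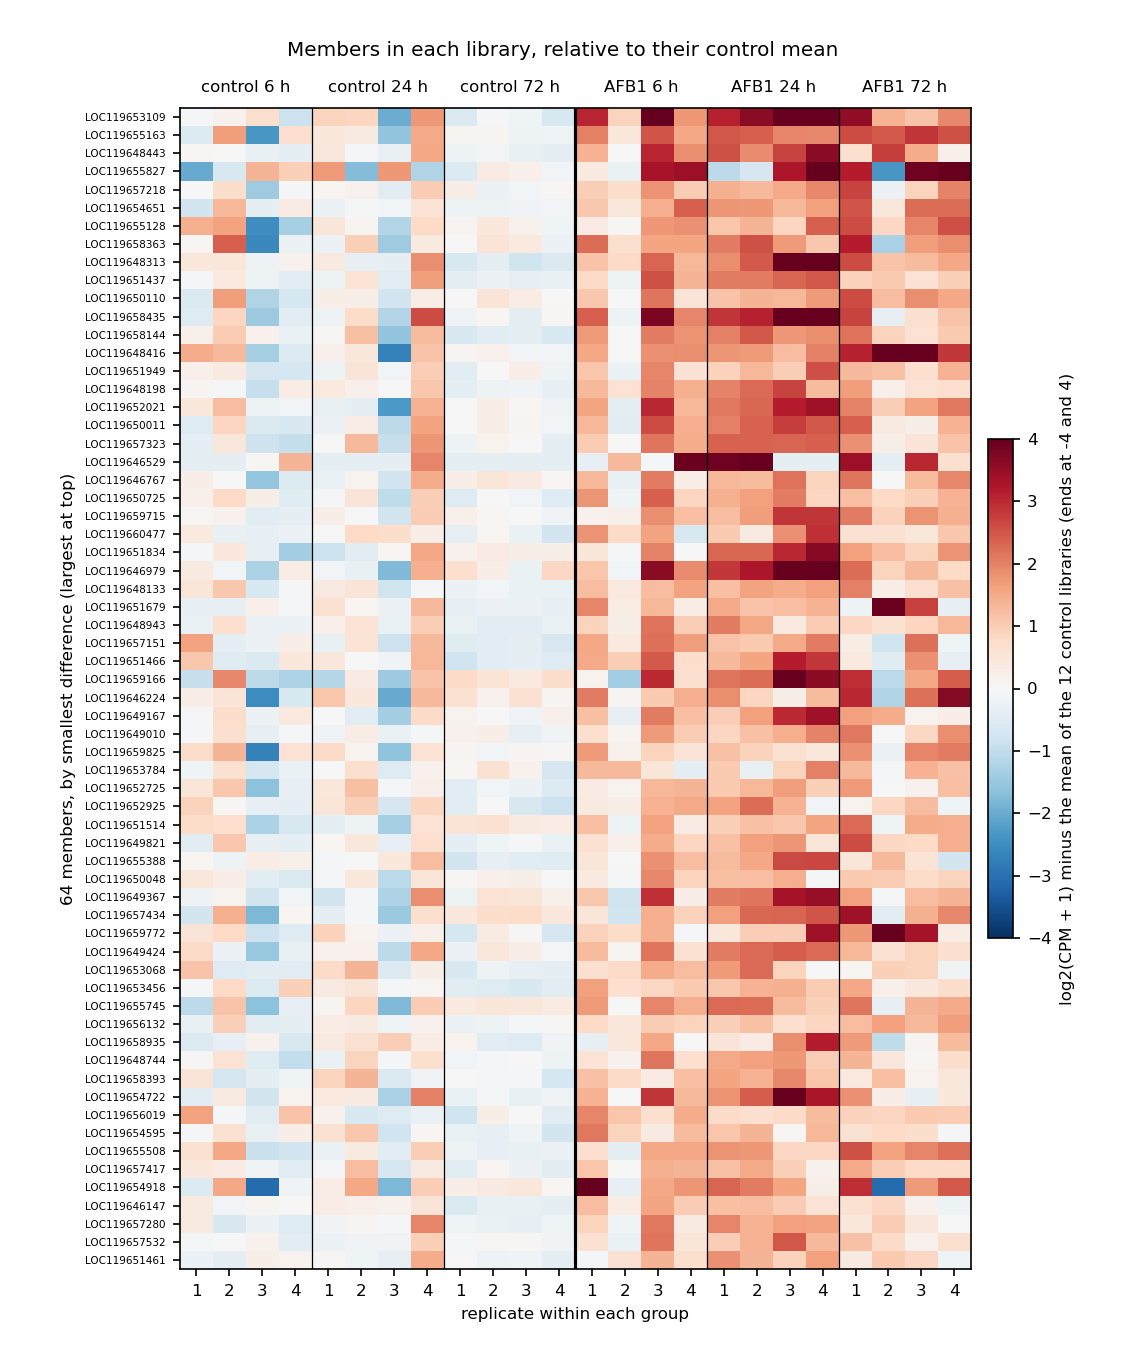
Level of each member (vertical axis) in each of the 24 libraries (horizontal axis, by group and replicate), as log2(CPM + 1) minus the mean of the 12 control libraries, with colours ending at -4 and 4. AFB1 6 h replicate 2 is pale in most members, control 24 h replicate 4 is red in most, and the 4 control 72 h libraries look alike.

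Averaged over the 64 members, log2(CPM + 1) lay between 3.38 and 5.01 in the control libraries and between 4.27 and 6.08 in the AFB1 libraries. The control 72 h libraries were the tightest, from 3.88 to 4.12. In AFB1 24 h the 4 values were 5.68, 5.79, 6.02 and 6.08. In AFB1 6 h they were 5.25, 4.27, 5.97 and 5.23, and replicate 2 lay inside the control range. AFB1 72 h replicate 2, at 4.70, also lay inside the range over all controls, though above the control 72 h libraries.

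AFB1 6 h replicate 2 also overlapped the control libraries of its time in 52 of 64 members and was the lowest of its group in 51. AFB1 6 h replicate 3 was the highest of its group in 45 members. In AFB1 72 h the values were 5.83, 4.70, 5.33 and 5.29, with replicate 1 highest in 36 members and replicate 2 lowest in 36. Among the controls of 24 h, replicate 3 was lowest in 52 members and replicate 4 highest in 44. In AFB1 24 h no library was highest or lowest in most members, with replicate 4 highest in 28 and replicate 1 lowest in 24. Matching shares of all genes are not given here, so none of these counts is read as a trait of the members.

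In every group but control 72 h, the library with the highest share of LOC119646963 also had the highest member level. In AFB1 24 h both rose from replicate 1 to replicate 4. Some libraries had high member levels at a lower share, such as AFB1 6 h replicate 1 (5.25 at 10.2%). The share was 10.2%, 7.77%, 33.7% and 23.9% of all counts in AFB1 6 h replicates 1 to 4. It was 36.8% in control 24 h replicate 4 against 7.12% to 7.91% in the other controls of that time. In AFB1 24 h it was 27.4%, 42.7%, 74.2% and 81.1%, and in AFB1 72 h 27.7%, 8.94%, 9.94% and 12.9%. In control 6 h it was 9.01%, 14.3%, 8.35% and 13.9%, and in control 72 h 15.3%, 12.9%, 11.4% and 15.3%, where replicate 4, with the lowest member level of that group, was among the highest. Mitochondrial protein-coding genes took 3.95% to 6.96% of the counts left in controls and 6.74% to 15.6% in AFB1 24 h. The part of either in the members' levels was not tested. With LOC119646963 kept in the totals, the members' median difference at 24 h was 0.30 and that of all genes tested was -1.21, while the members' median at 6 h was 0.93.

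**Figure D3:**
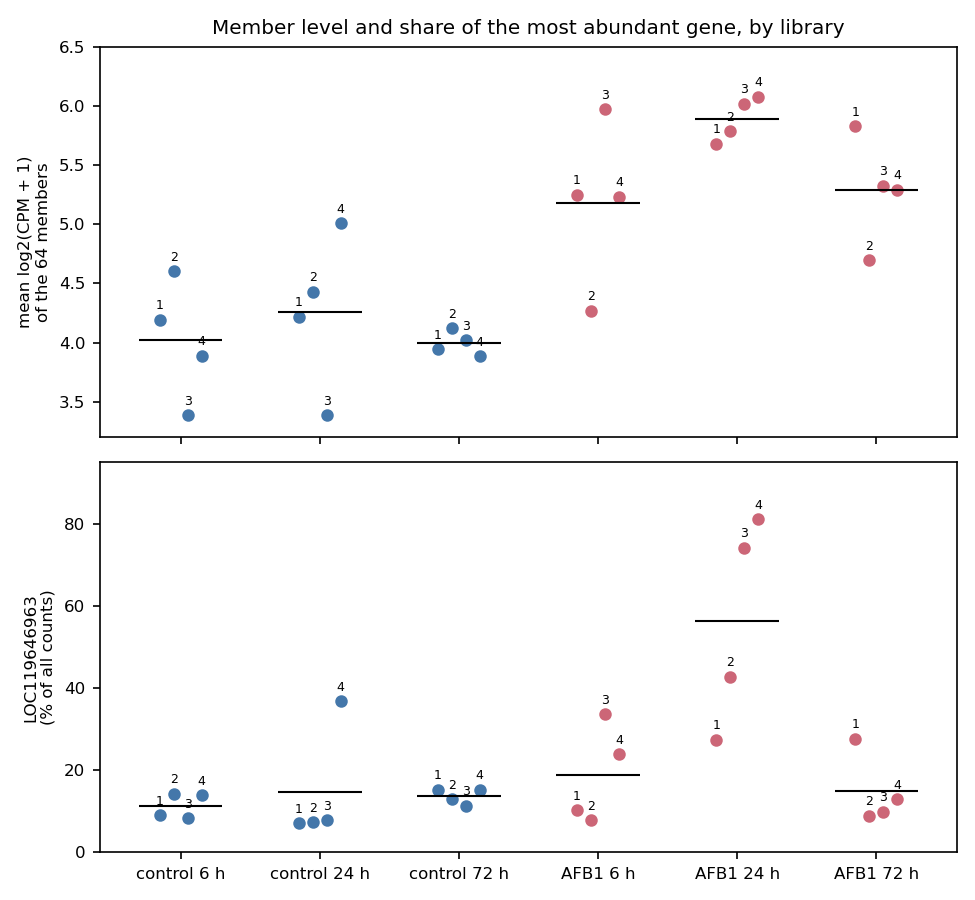
Upper panel: mean log2(CPM + 1) of the 64 members in each library, by group, with the replicate number beside each point and a line at the group mean. Lower panel: share of all counts taken by LOC119646963 in the same libraries. AFB1 6 h replicate 2 at 4.27 and AFB1 72 h replicate 2 at 4.70 sit within the range of all controls. Control 24 h replicate 4 is highest of the controls in both panels, at 5.01 and 36.8%.

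LOC119653109 had the largest smallest difference of all members. It had 86.9, 102, 140 and 49.0 CPM in the control 6 h libraries and 752, 168, 1870 and 302 CPM on AFB1 feed. At 24 h it had 166.5, 164, 21.9 and 300.4 CPM in controls and 780.0, 1103, 2428 and 3005 CPM on AFB1 feed. At 72 h the controls had 60.0, 87.1, 79.7 and 57.1 CPM and the AFB1 libraries 1052, 237, 197 and 344 CPM. The diets did not overlap at any time, but AFB1 6 h replicate 2 and AFB1 72 h replicates 2 and 3 lay below control 24 h replicate 4. Its differences were 2.53, 3.75 and 2.35.

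The other members whose diets were separate at all 3 times, LOC119648198 and LOC119659715, are named for that reason, after their values were seen. The share of all genes with separate diets at all 3 times is not given here, so nothing is read from their number. LOC119648198 had 16.2 to 21.1 CPM in 3 control 6 h libraries and 8.57 in the other, against 43.1, 26.2, 70.4 and 47.3 CPM on AFB1 feed. Its controls lay between 17.2 and 37.0 CPM at 24 h and between 12.8 and 15.4 CPM at 72 h, and its AFB1 libraries between 42.6 and 116 CPM and between 19.9 and 57.4 CPM. LOC119659715 had 17.8, 19.2, 12.1 and 13.0 CPM in control 6 h libraries and 19.5, 19.7, 64.2 and 40.3 CPM on AFB1 feed, so 2 of its AFB1 libraries lay just above the highest control. At 24 and 72 h its AFB1 libraries had at least 41.2 and 32.9 CPM, and its controls at most 35.1 and 19.6 CPM.

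**Figure D4:**
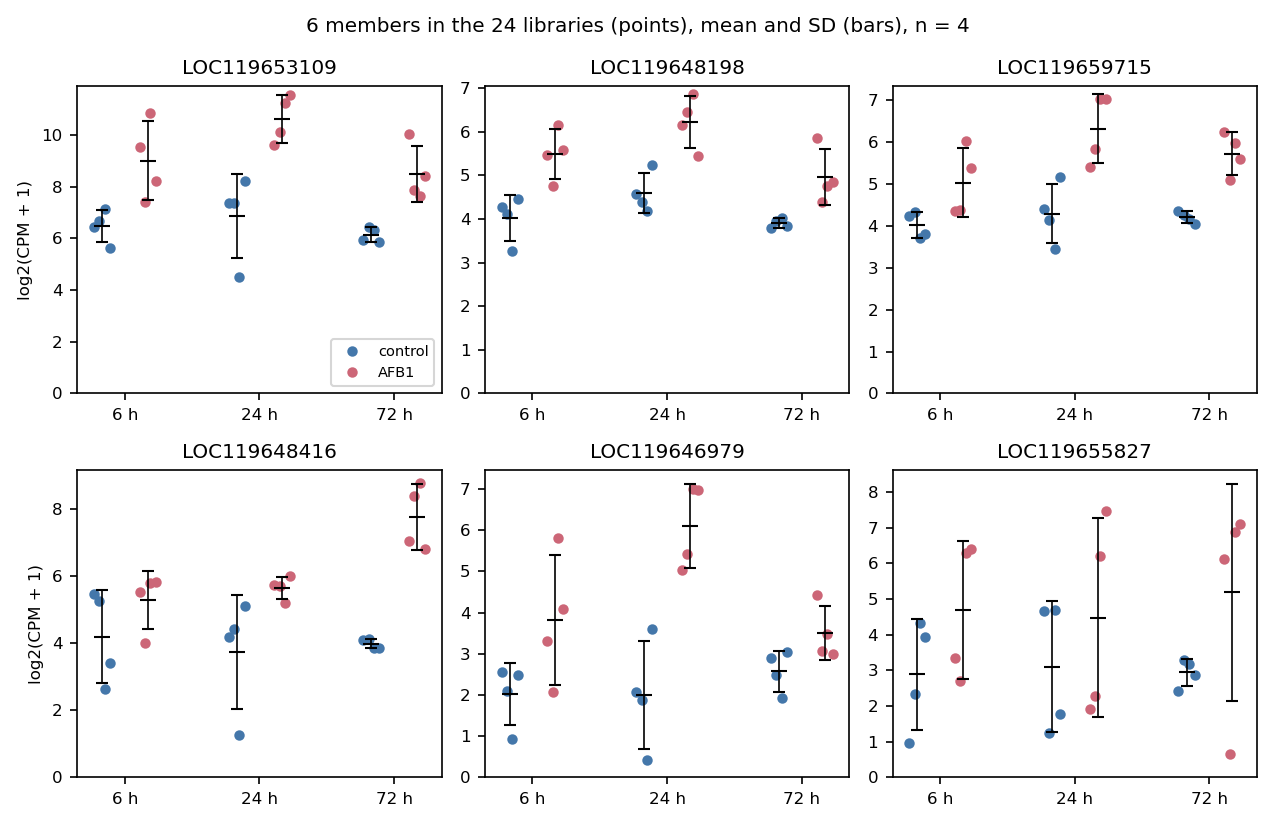
log2(CPM + 1) of 6 members in the 24 libraries (points), with the mean and SD of each group of 4 (bars), control and AFB1 side by side at each time. LOC119653109, LOC119648198 and LOC119659715 have separate diets at all 3 times; LOC119648416 is highest at AFB1 72 h (111 to 445 CPM), LOC119646979 at AFB1 24 h (31.7 to 126 CPM), and LOC119655827 spans 0.573 to 136 CPM within AFB1 72 h.

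LOC119655163 was low in controls, with 0 to 15.0 CPM at 6 h, 0.677 to 13.5 CPM at 24 h and 3.38 to 4.50 CPM at 72 h. On AFB1 feed it had 19.7, 5.76, 28.0 and 13.6 CPM at 6 h, 27.0, 25.4, 18.6 and 18.1 CPM at 24 h and 29.8, 26.7, 35.5 and 28.4 CPM at 72 h. The diets overlapped at 6 h and were separate at 24 and 72 h, and at 72 h the lowest AFB1 library had 26.7 CPM and the highest control 4.50 CPM. This was also among the 7 members kept by the rule whichever single library was left out.

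LOC119648443 was near the limit of detection in controls, with 0 to 0.390 CPM at 6 h, 0.0677 to 2.80 CPM at 24 h and 0 to 0.221 CPM at 72 h, which is at most 16 reads in a library. On AFB1 feed it had 2.46, 0.333, 9.94 and 3.72 CPM at 6 h, 6.60, 3.90, 7.62 and 15.2 CPM at 24 h and 1.06, 7.93, 2.71 and 0.517 CPM at 72 h. AFB1 6 h replicate 2 lay inside the control range, and the diets were separate at the later times. At such levels the pseudocount sets the size of the difference: the smallest was 1.53 with 1 added, 2.68 with 0.25 added and 0.67 with 4 added.

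The 3 most abundant members were LOC119652021, LOC119648943 and LOC119652725. LOC119652021 had 979 to 2648 CPM in control 6 h, 229 to 2959 CPM in control 24 h and 1027 to 1361 CPM in control 72 h libraries. It had 3344, 887, 9067 and 2834 CPM on AFB1 feed at 6 h, 4832, 5591, 9996 and 11960 CPM at 24 h, and 4421, 2234, 3451 and 4838 CPM at 72 h. AFB1 6 h replicate 2 was the only AFB1 library below the highest control of its own time at any time, and its 6 h difference of 1.05 fell to 0.51 without replicate 3.

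LOC119648943 had 719 to 1374 CPM in control 6 h, 725 to 1697 CPM in control 24 h and 626 to 722.5 CPM in control 72 h libraries. Its AFB1 libraries had 1614, 1023, 3880 and 1695 CPM at 6 h, 3582, 2522, 1130 and 1755 CPM at 24 h and 1532, 1306, 1562 and 2192 CPM at 72 h. The diets were separate at 72 h and overlapped at 6 and 24 h. With LOC119646963 kept in the totals its smallest difference was -0.28 in place of 0.88, so its direction was not held at all 3 times on that scale.

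LOC119652725 had 287 to 1884 CPM in control 6 h, 840.4 to 2062 CPM in control 24 h and 611 to 831 CPM in control 72 h libraries. On AFB1 feed it had 1114, 997, 2233 and 2301 CPM at 6 h, 1870, 2237, 2858 and 1721 CPM at 24 h and 2938, 883.5, 1011 and 2072 CPM at 72 h. The diets overlapped at 6 and 24 h and were separate by a narrow margin at 72 h. Its smallest difference was 0.80, and -0.35 with LOC119646963 kept in the totals.

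LOC119655827 and LOC119654918 varied most among AFB1 libraries of 1 time. LOC119655827 had 68.2, 0.573, 116 and 136 CPM in AFB1 72 h, 2.79, 3.90, 72.8 and 176 CPM in AFB1 24 h and 9.20, 5.49, 76.8 and 83.1 CPM in AFB1 6 h libraries, against 0.935 to 25.04 CPM over all controls. At 6 and 24 h its AFB1 libraries lay partly within and partly above the control values, at 72 h 1 lay below and 3 above them, and without AFB1 24 h replicates 3 and 4 its 24 h difference was -0.99 in place of 1.37. LOC119654918 had 64.1, 0, 26.3 and 44.9 CPM in AFB1 72 h and 141, 5.71, 23.6 and 27.4 CPM in AFB1 6 h libraries, against 0 to 23.6 CPM over all controls.

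LOC119646529 is named, after its values were seen, because all control 72 h libraries had 0 counts of it. The AFB1 72 h libraries had 214 counts together, of which 133 and 73 came from replicates 1 and 3. Pooled in this way, CPM was at least 80.7-fold higher when the control group as a whole is given a floor of 3 counts. The difference in mean log2(CPM + 1) was 2.05. The AFB1 72 h libraries had 12.8, 0, 9.43 and 1.03 CPM, so 1 of them was at 0 as well. Of the AFB1 24 h libraries, 2 were at 0 beside 2 with 18.2 and 26.6 CPM. At 6 h the AFB1 libraries had 0.041, 2.16, 0.221 and 18.6 CPM. Controls of the other times reached 2.36 CPM in control 6 h replicate 4 and 4.02 CPM in control 24 h replicate 4.

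The group means of the neighbouring members LOC119658435 and LOC119657218 followed unlike courses, which was not tested. Neither was called in any comparison of AFB1 times. LOC119658435 had 14.2, 1.497, 38.0 and 10.2 CPM in AFB1 6 h, 20.0, 23.4, 46.7 and 86.4 CPM in AFB1 24 h and 17.7, 1.31, 3.49 and 5.30 CPM in AFB1 72 h libraries. LOC119657218 had 5.01, 3.94, 9.49 and 5.09 CPM, 7.04, 6.34, 7.62 and 10.5 CPM, and 18.7, 1.55, 4.65 and 11.0 CPM in the same groups. The first rose and fell back in its group means, with differences of 2.36, 3.24 and 1.13, and the second stayed level. Both were lowest of their group in AFB1 72 h replicate 2. In controls both had at most 5.07 CPM, apart from 16.4 CPM of LOC119658435 in control 24 h replicate 4.

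Between the times on AFB1 feed the members were compared within the 12 AFB1 libraries. The rule did not set the AFB1 times against each other, but it used each AFB1 group mean and held the control means within 1. Changes between the times are thus tied to the selection. The members' values and calls beside those of all genes are a description. The highest of the 3 AFB1 group means fell at 24 h in 44 members (68.8%), at 72 h in 16 (25%) and at 6 h in 4 (6.25%). Over all genes tested, 24.1% were highest at 24 h, 48.4% at 72 h and 27.5% at 6 h. In the fitted model, which scales libraries by trimmed mean of M values (TMM), the members' median log2 fold change from 6 to 24 h was 0.64, with 60 of 64 above 0, and that of all genes was -0.12. From 24 to 72 h it was -0.91, with 48 of 64 below 0, against 0.09 for all genes. From 6 to 72 h it was -0.29 against 0.01.

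From 6 to 24 h, edgeR's quasi-likelihood test called none of the 64 members at an adjusted p under 0.05, and 0.0% of 9418 genes in either direction. At an unadjusted p under 0.05 there were 8 members and 2050 genes. DESeq2 called 2 members and 530 genes, limma voom called 0 members and 0 genes, and edgeR without AFB1 6 h replicate 3 called 16 members and 1710 of 9615 genes, so calls appeared over the whole table without that library. Replicates of the same number at 6 and 24 h deviated together (r 0.18 to 0.51). With the replicate number as a block in edgeR there were again 0 calls. At an unadjusted p under 0.05 there were then 20 members and 2149 of 9418 genes. The median log2 fold change was 0.83 for the members and -0.12 for all genes.

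From 24 to 72 h, 10 members passed the same test, 9 lower and 1 higher at 72 h. Of all genes tested, 12.0% were lower and 12.5% higher, so the share of members called lower (9 of 64) was close to that of all genes. Those lower were LOC119646979, LOC119654722, LOC119648313, LOC119651466, LOC119655388, LOC119649424, LOC119653068, LOC119658393 and LOC119651461, with log2 fold changes from -3.18 to -1.40. With library totals without LOC119646963 as the scale, 1 member was called higher and 6 lower, the median over all genes rose to 0.42 and of all genes 1221 passed as higher and 706 as lower, where TMM gave 1175 and 1128. Without AFB1 24 h replicate 3 none of the members was called, and without AFB1 72 h replicate 3 or 4 there were 1 and 2 calls. In the same settings 8.13%, 8.93% and 9.95% of all genes were called in either direction, against 24.5% with all 12 libraries.

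LOC119646979 had the largest fall. It had 31.7, 42.2, 126 and 124 CPM in AFB1 24 h and 20.5, 7.44, 10.2 and 6.98 CPM in AFB1 72 h libraries, lower in 4 of 4 than any 24 h library. The log2 fold change was -3.18 (SE 0.93, adjusted p = 0.0288 in edgeR's quasi-likelihood test; 0.00189 to 0.224 over the alternatives). Controls of 72 h had 6.40, 4.57, 2.79 and 7.19 CPM, so only AFB1 72 h replicate 4 overlapped them.

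LOC119654722 had 92.6, 145, 684 and 262 CPM in AFB1 24 h and 95.1, 31.7, 20.9 and 35.6 CPM in AFB1 72 h libraries, where replicate 1 lay just above the lowest 24 h library. The log2 fold change was -3.07 (SE 0.90, adjusted p = 0.0285 in edgeR's quasi-likelihood test; 0.00214 to 0.265 over the alternatives) and -2.02 without AFB1 24 h replicate 3. The diets overlapped at each time in this member, and control 24 h replicate 4 had 109 CPM against 10.2 to 34.5 CPM in the other controls of that time. For the last gene inside the rule, LOC119651461, the fall from 24 to 72 h was -1.40 (SE 0.48, adjusted p = 0.0478 in edgeR's quasi-likelihood test; 0.0119 to 0.137 over the alternatives). That call was lost in 11 of the 12 fits that left out 1 library.

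LOC119648416 was the only member called higher at 72 h. It had 45.4, 15.0, 54.8 and 56.2 CPM in AFB1 6 h, 52.8, 51.0, 36.2 and 63.0 CPM in AFB1 24 h and 132, 336, 445 and 111 CPM in AFB1 72 h libraries. All 4 libraries of 72 h lay above all 8 of the earlier times. The log2 fold change was 1.95 from 24 h (SE 0.53, adjusted p = 0.0220 in edgeR's quasi-likelihood test; 0.00195 to 0.115 over the alternatives) and 2.35 from 6 h (SE 0.54, adjusted p = 0.0271; 0.00027 to 0.0890). In controls it had 5.26 to 43.3 CPM at 6 h, 1.42 to 33.6 CPM at 24 h and 13.7 to 16.7 CPM at 72 h. From 6 to 72 h no other member was called, and 1.58% of all genes were higher and 2.40% lower. Without AFB1 6 h replicate 1 or 4, or AFB1 72 h replicate 3, LOC119648416 was not called from 6 to 72 h either, with a log2 fold change of at least 1.90.

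**Figure D5:**
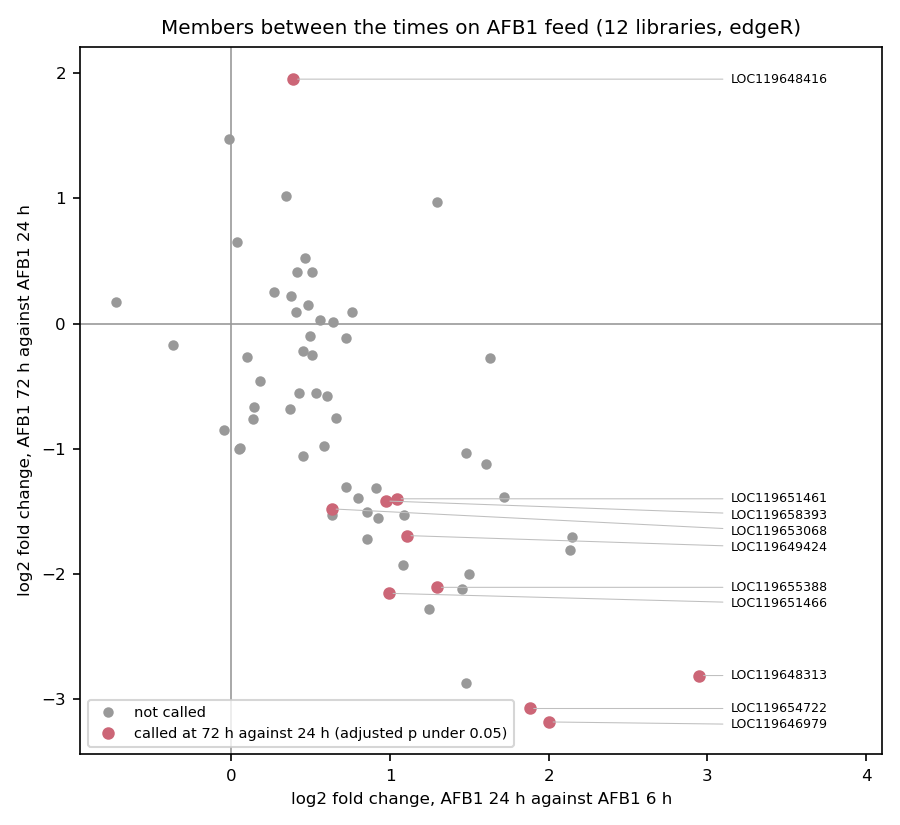
log2 fold change of the 64 members from 6 to 24 h (horizontal axis) and from 24 to 72 h (vertical axis) on AFB1 feed, fitted to 12 libraries with edgeR. The 10 members called from 24 to 72 h are coloured and named: LOC119648416 lies at 1.95, and the 9 others between -3.18 and -1.40. Both axes use the 24 h libraries, so a slope between them is built into the plot.

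Within 5 of the 6 groups the members' median spread was larger than that of all genes tested. The median SD of log2(CPM + 1) over the members was 0.70 in control 6 h, 0.82 in control 24 h and 0.17 in control 72 h libraries, against 0.37, 0.58 and 0.15 over all genes tested. On AFB1 feed it was 0.85 at 6 h, 0.60 at 24 h and 0.73 at 72 h, against 0.63, 0.60 and 0.52. At 24 h on AFB1 feed the members and all genes did not differ in this measure to the precision given. This spread was not tested.

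Which genes entered the set depended on the scale. With LOC119646963 kept in the totals, 18 of the 64 still met the rule, with TMM-scaled totals 50, and with group medians in place of means 42. Leaving out single libraries kept between 41 and 63, with the fewest without control 24 h replicate 3 (41) and AFB1 6 h replicate 3 (42). The 7 members kept whichever library was left out were LOC119655163, LOC119648443, LOC119657218, LOC119654651, LOC119651437, LOC119648198 and LOC119646767, and each of the 64 was kept in at least 15 of the 24.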

How the data were processed

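The values are raw counts of reads per gene as deposited by the authors, 1 column for each of 24 libraries, from paired 150 bp reads per the labels' protocols. The submitters' processing notes name STAR. Its version, the counting tool, the build and the strand setting were not given in the sources used here. Overlapping or near-identical genes may share reads. The authors used DESeq2, per the series' design text.

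The 9 identifiers that name no gene held 0.0206% to 0.0431% of a library's counts and were left out of tests. CPM used library totals without LOC119646963 and a pseudocount of 1. The members and lists were chosen with earlier results of these data known. The named members are those with the largest smallest difference (4), the highest mean CPM (3), the last inside and first outside the rule (2 each), the largest called change per direction between AFB1 times (up to 2), the largest SD in an AFB1 group (2) and neighbouring members.

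Tests used edgeR 4.0.16 (TMM, filterByExpr, robust quasi-likelihood test, two-sided, Benjamini-Hochberg over all genes) in R 4.3.3 with limma 3.58.1, and DESeq2 1.42.0 as an alternative. Times on AFB1 feed were fitted on 12 libraries and the diets on all 24. "Genes tested" are those passing filterByExpr; for library values those are its LOC genes. The labels give no pairing of libraries by replicate number. Same-numbered AFB1 6 and 24 h libraries correlated in their deviations from the group means (all 4 pairs over 0.1). Libraries of unlike number were not compared, so a pairing is not established. The replicate block also covered AFB1 72 h, whose same-numbered correlations with AFB1 24 h were -0.22 to -0.04. The procedure was tested on simulated data. Gene classes and gene order came from RefSeq (assembly GCF_905115235.1), matched for all 15129 LOC genes. It gave no product names, proteins or promoters, so planned product lists, tissue markers, protein patterns and promoter motifs were not formed. Floors cover counting error only.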

Additional observations from a re-analysis of the deposited data

Results flagged for a closer look

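Of 102 sets of 4 libraries examined, 5 held 1 library far from the other 3 by Dixon's criterion at the 95% level, and chance gives about 1 in 20. LOC119655827 had 0.573 CPM in AFB1 72 h replicate 2, against 68.2 to 136 CPM in the others. LOC119648943 had 1374 CPM in control 6 h replicate 2, against 719 to 739 CPM. LOC119657532 had 229.5 CPM in control 24 h replicate 4, against 99.6 to 108 CPM. LOC119648416 had 15.0 CPM in AFB1 6 h replicate 2, against 45.4 to 56.2 CPM. The share of LOC119646963 was 36.8% in control 24 h replicate 4, against 7.12% to 7.91% in the other libraries of that group.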

How the results depend on the processing

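The counts of members called moved most; of 300 alternative values for these counts, the rule and the medians, 246 stayed within the limits set and 54 moved, and the cause was not tested. The share of all genes called in either direction stands in brackets after a count where it is given. From 6 to 24 h on AFB1 feed, 0 members were called (0.0%), 2 with DESeq2 (4.12%), 1 with all 24 libraries fitted (4.04%), and 0 to 16 leaving out single libraries (17.8% at 16). From 24 to 72 h, 10 were called (24.5%), 18 with DESeq2 (24.3%), 17 with all 24 libraries fitted (37.2%), 0 without AFB1 24 h replicates 3 and 4 (2.89%), and 0 to 20 leaving out single libraries. There were 6 (19.6%) and 20 (31.4%) without AFB1 6 h replicates 1 and 3, 5 (13.9%), 0 (8.13%) and 5 (18.2%) without AFB1 24 h replicates 2, 3 and 4, and 4 (16.3%), 1 (8.93%) and 2 (9.95%) without AFB1 72 h replicates 2, 3 and 4. From 6 to 72 h it was 0 to 1, and with all 12 libraries 1 member and 375 of 9418 genes were called.

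Between the diets at 6 h, 17 members were called (14.3%), 33 with DESeq2 (15.2%), 8 with limma voom (12.2%), 6 with library totals without LOC119646963 (9.63%), 6 with the replicate block (10.5%), 44 without AFB1 6 h replicate 2 and control 24 h replicate 4 (29.0%), 1 with only the 8 libraries of 6 h (5.28%), 7 when control 72 h counts were summed into 2 libraries (9.68%), and 3 (6.25% and 7.99%) to 36 (21.6%) leaving out single libraries. At 24 h, 36 were called (31.3%), 0 without AFB1 24 h replicates 3 and 4 (1 of 10449 genes), 15 with only that time's libraries (9.52%) and 14 (15.2% and 16.3%) to 50 leaving out single libraries. The 50 came without control 24 h replicate 4. The share of all genes in that setting is not given here, so nothing is read from that count. At 72 h, 11 were called (9.28%), 22 with DESeq2 (9.08%), 5 with limma voom (9.32%), 17 with totals without LOC119646963 (8.24%), 27 with only that time's libraries (14.0%), 0 when control 72 h counts were summed into 2 libraries (4.39%), and 6 (6.96% to 7.09%) to 17 (10.6%) leaving out single libraries.

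The rule kept 36 members with a pseudocount of 4, 18 with LOC119646963 in the totals, 42 with group medians, and 41 to 63 leaving out single libraries; 98 genes met it with TMM-scaled totals. The median difference at 24 h was 0.30 with LOC119646963 in the totals. LOC119655827 turned to -0.99 without AFB1 24 h replicates 3 and 4, and LOC119648943 and LOC119652725 to -0.28 and -0.35 with LOC119646963 in the totals. Apart from AFB1 6 and 24 h, no pair of groups had all same-numbered libraries deviating together with r over 0.1 (15 of 60 pairs in all, from -0.60 to 0.51). The replicate block gave 26 calls at 24 h (27.3%) and 8 at 72 h (8.63%) between diets and 12 from 24 to 72 h on AFB1 feed (21.3%). Depth limits members such as LOC119648443, with few reads per library.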
